A study of Mus musculus with 9 samples.

Results

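The SMAD genes are the 8 mouse genes Smad1, Smad2, Smad3, Smad4, Smad5, Smad6, Smad7 and Smad9, which were picked out by symbol from the 46078 genes of each count file. They were chosen as a gene family, with earlier results of these data known. All 8 had reads in every library, the lowest being 26 counts for Smad9, and all 8 passed the filter on low counts in each of the 3 comparisons. The cells were EGFP-SSCs, a line of mouse spermatogonial stem cells that carries a green fluorescent protein and whose genotype is labelled WT, and all 9 RNA-seq libraries came from this line. The 3 libraries at 0 h were from the line in normal culture on mitomycin C-treated mouse embryonic fibroblasts, with GDNF, basic FGF and EGF in the medium. For the 3 libraries at 24 h and the 3 at 48 h, the cells had been mixed with an equal number of testicular somatic cells from busulfan-treated mice aged 3 to 7 days and cultured with BMP-4 and BMP-7 at 20 ng/ml each, activin A at 100 ng/ml, retinoic acid, testosterone, FSH and bovine pituitary extract. Every agent and the somatic cells were therefore added together, so that time in co-culture, each ligand and the change of medium cannot be told apart, and no library was made from cells kept in the 0 h medium for 24 or 48 h. EGFP-positive cells were sorted after co-culture. The paper describes flow sorting at several culture stages, without saying separately whether the 0 h cells were sorted. The labels call the samples of a group biological replicates of 1 line and do not say how they were separated, so p-values measure the spread between these samples.

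The genes lie on 5 chromosomes of the GRCm38 assembly, and counts refer to reads over their exons. Smad1 (ENSMUSG00000031681) spans chromosome 8 from 79338395 to 79399518 on the minus strand, Smad5 (ENSMUSG00000021540) spans chromosome 13 from 56703010 to 56742377 on the plus strand, and Smad9 (ENSMUSG00000027796) spans chromosome 3 from 54755582 to 54801257 on the plus strand. Smad3 (ENSMUSG00000032402, 63646767 to 63757994) and Smad6 (ENSMUSG00000036867, 63953076 to 64022059) are neighbours on the minus strand of chromosome 9. Chromosome 18 holds Smad4 (ENSMUSG00000024515, 73639009 to 73703780, minus strand), Smad7 (ENSMUSG00000025880, 75367529 to 75395935, plus strand) and Smad2 (ENSMUSG00000024563, 76241580 to 76310963, plus strand). Sequence shared with the longest transcripts of other genes was small. For 7 of the 8 longest SMAD transcripts no stretch of 75 bases at 97% identity was found in them, and for Smad9 such stretches covered 2.22% of 5368 bases. Other transcripts and the rest of the genome were not searched. Smad5 shared 100 exon bases with a small RNA gene, Gm27301, which had 0 counts in total.

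SMAD proteins carry signals of the TGF-beta superfamily from the cell surface to the nucleus. Type I receptors phosphorylate the receptor SMADs, of which SMAD1, SMAD5 and SMAD9 serve BMP receptors and SMAD2 and SMAD3 serve activin, nodal and TGF-beta receptors. Phosphorylated receptor SMADs bind the common SMAD, SMAD4, and the complex binds DNA, whereas the inhibitory SMADs, SMAD6 and SMAD7, block the receptors or compete for partners and are themselves induced by the signal. In the testis, BMP4 and activin A act on spermatogonia and somatic cells, and both ligands were in the differentiation medium. RNA-seq measures the transcripts of these genes and not their phosphorylation, on which SMAD activity depends.

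RefSeq promoter windows (GRCm38.p6, 250 bases before and 50 bases from the transcription start) were matched for 5 of the 8 genes, and 3 are shown because they hold a palindromic motif that SMAD proteins are known to bind. Capitals mark the motif, GTCTAGAC in Smad6 and GGCGCC in Smad9 and Smad5. The windows are chr9:64022010-64022309 on the minus strand for Smad6, chr3:54755332-54755631 on the plus strand for Smad9 and chr13:56702760-56703059 on the plus strand for the most upstream of the 3 starts of Smad5.
Smad6 promoter: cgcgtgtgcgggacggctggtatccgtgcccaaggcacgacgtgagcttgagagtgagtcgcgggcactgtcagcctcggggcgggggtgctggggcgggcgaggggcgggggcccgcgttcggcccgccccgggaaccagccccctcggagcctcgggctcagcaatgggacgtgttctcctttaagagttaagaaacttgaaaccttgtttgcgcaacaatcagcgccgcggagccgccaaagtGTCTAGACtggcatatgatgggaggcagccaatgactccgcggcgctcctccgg
Smad9 promoter: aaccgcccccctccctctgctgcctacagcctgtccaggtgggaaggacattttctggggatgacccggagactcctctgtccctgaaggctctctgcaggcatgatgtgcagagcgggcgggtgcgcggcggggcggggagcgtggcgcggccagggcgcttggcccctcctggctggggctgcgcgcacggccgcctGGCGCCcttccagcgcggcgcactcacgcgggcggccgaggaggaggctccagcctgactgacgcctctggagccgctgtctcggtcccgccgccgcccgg
Smad5 promoter: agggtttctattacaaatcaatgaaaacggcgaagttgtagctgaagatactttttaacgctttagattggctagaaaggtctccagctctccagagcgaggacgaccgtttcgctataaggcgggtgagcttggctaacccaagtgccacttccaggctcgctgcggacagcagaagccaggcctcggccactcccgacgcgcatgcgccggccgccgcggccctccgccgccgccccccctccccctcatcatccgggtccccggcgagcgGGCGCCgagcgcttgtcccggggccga
In Smad6 the motif began 4 bases before the start site, and it occurred in 0.213% of the 32851 RefSeq promoter windows. GGCGCC began 51 bases before the start of Smad9 and at base 24 of the Smad5 transcript, and it occurred in 11.9% of windows. The shorter SMAD box CAGAC, searched on both strands, was in 49.6% of windows and among the SMAD windows only in that of the most downstream Smad5 start. AGACAGAC, also searched on both strands, was in none of the SMAD windows and in 1.88% of all windows. TGACCT, which reads AGGTCA on the other strand and is not given here as a SMAD motif, was searched likewise. It was in none of the SMAD windows and in 16.3% of all windows. These are matches of letters and no binding was measured.

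The libraries held 16825251 to 22201892 counts, and levels are given as CPM (library-scaled counts) with TMM normalization, which scales libraries so that most genes keep their level. The cells carried the transcripts of their label, since 10 germ cell markers summed to between 1809 and 2819 CPM in every library, with Dazl, an RNA-binding protein of germ cells, the most abundant. Markers of somatic cells moved with time. The summed level of 7 peritubular myoid markers was 17.1 to 20.5 CPM at 0 h, 161 to 230 at 24 h and 284 to 350 at 48 h, that of 10 Sertoli markers was 24.6 to 26.0, 75.5 to 129 and 115 to 130, and that of 10 fibroblast and stromal markers was 818 to 981, 2903 to 3327 and 3900 to 4204. The sum over 7 Leydig markers was 4.58 to 7.00, 28.7 to 44.8 and 29.1 to 37.3 CPM, with 3 of 4 tested members called higher at 24 h and 4 of 4 at 48 h against 0 h. Individual defining receptors were at or under 3 counts in each library, Fshr of Sertoli cells and Lhcgr of Leydig cells. Against 0 h, 9 tested Sertoli markers gave 7 upward calls and 2 downward at 24 h, then 7 and 1 at 48 h. The 10 fibroblast and stromal markers gave 6 and 1, then 7 and 1. The 7 myoid markers gave 6 and 0 each time. At 0 h the libraries also differed along GC content, the median log2 ratio of replicate 3 to replicate 1 being -0.86 in the fifth of genes with the lowest GC and 0.45 in the fifth with the highest. The part of somatic RNA and of GC content in the SMAD changes was not tested beyond a fit with GC and length offsets. Bulk RNA cannot separate fewer cells that express a gene from less RNA per cell.

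At 24 h, Smad1, Smad3 and Smad9 were higher than at 0 h and Smad7 was lower, and at 48 h Smad1, Smad3 and Smad9 were still higher than at 0 h while Smad5 was lower. Called here means an adjusted p of at most 0.05 in the quasi-likelihood test of edgeR after Benjamini-Hochberg adjustment over all genes. At 24 h against 0 h 4 of 8 SMAD genes were called, where 25.5% of 17592 tested genes were, and at 48 h against 0 h 4 of 8 were called, where 31.6% of 17755 were. Between 24 h and 48 h 5 of 8 were called, Smad4, Smad7 and Smad9 higher and Smad3 and Smad5 lower at 48 h, where 21.3% of 17499 genes were. By direction, 11.4% of genes were called higher and 14.2% lower at 24 h against 0 h, 13.0% and 18.5% at 48 h against 0 h, and 8.61% and 12.7% at 48 h against 24 h. Libraries did not overlap for 7, 7 and 6 of the 8 genes in these comparisons, against 43.4%, 48.3% and 39.6% of all genes. Of these, 3 SMAD genes were higher and 4 lower at 24 h than at 0 h (21.3% and 22.1% of all genes), 4 higher and 3 lower in the cells of 48 h than of 0 h (22.9% and 25.4%), and 4 higher and 2 lower after 48 h than after 24 h (18.6% and 21.0%). The median log2 fold change of the 8 genes was -0.17, 0.02 and 0.08, and that of all genes was 0.01, 0.02 and -0.00. The comparisons with 0 h share the 0 h libraries, so their calls are not independent. Of the 13 calls, 4 held in each of 8 other fits and 6 fits that left out a library, namely Smad3 at 24 h against 0 h, Smad5 and Smad9 at 48 h against 0 h, and Smad9 at 48 h against 24 h. Where lost calls are listed by fit below, the replicate block, a fit with a term for replicate number, is left out. Besides those 4 calls, the block kept only Smad3 and Smad7 at 48 h against 24 h, and it lost the other SMAD calls.

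**Figure D1:**
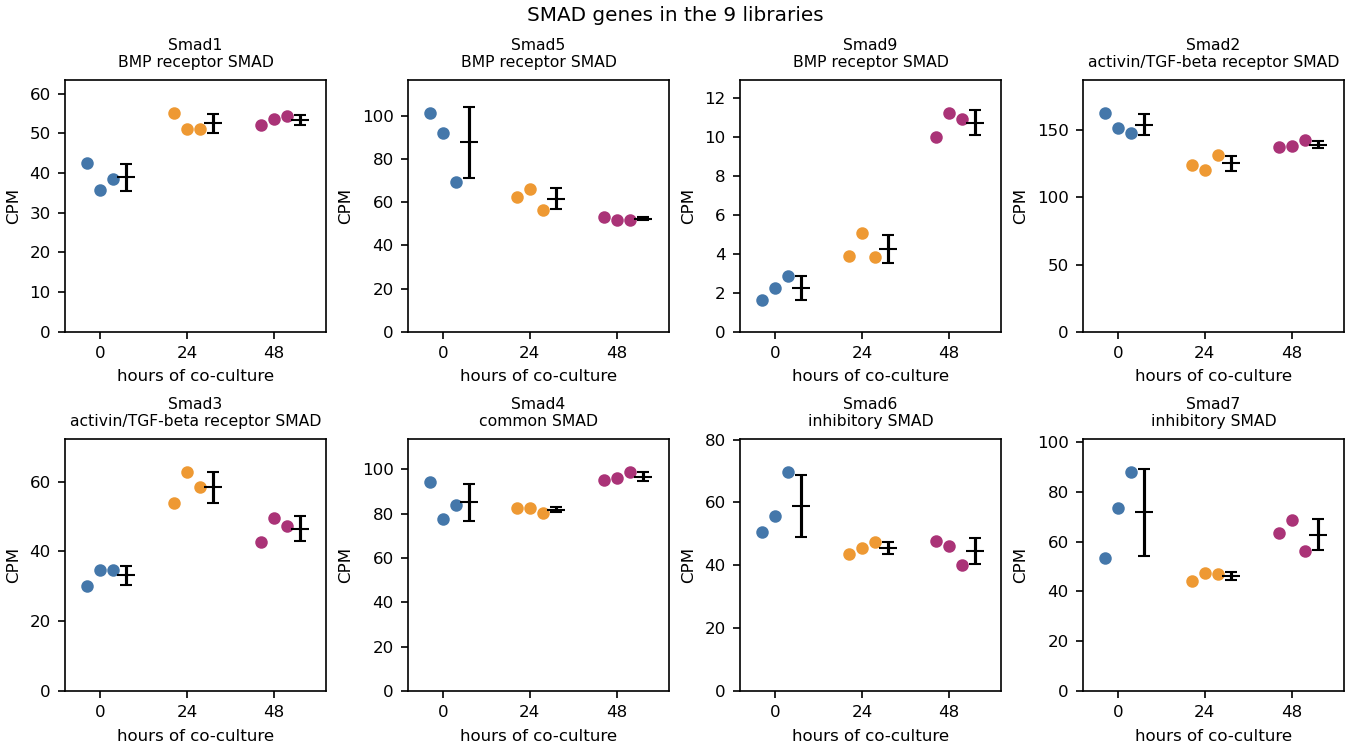
Level of each SMAD gene (CPM) against hours of co-culture, with 1 point per library, and the mean and SD of 3 libraries as a bar beside them. Smad9 reached 10.0 to 11.3 CPM at 48 h from 1.62 to 2.84 CPM at 0 h, and Smad5 fell from a spread of 69.6 to 102 CPM at 0 h to 51.9 to 53.1 CPM at 48 h.

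**Figure D2:**
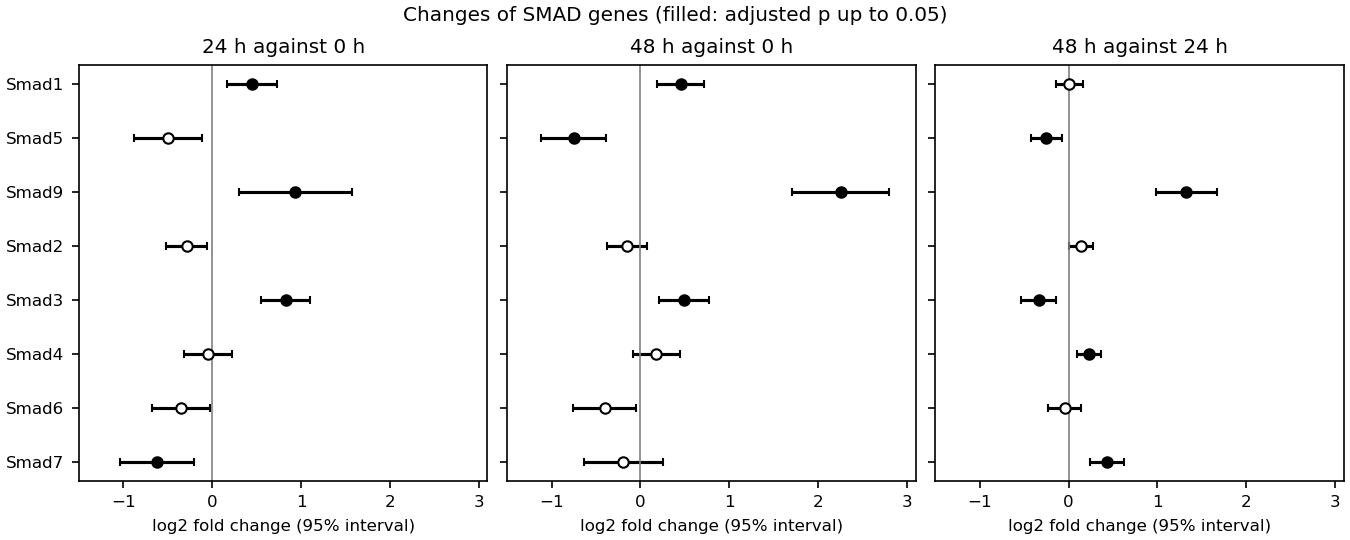
Log2 fold change of each SMAD gene in the 3 comparisons with its 95% interval, where filled points have an adjusted p of at most 0.05. The interval of Smad9 at 48 h against 0 h ran from 1.71 to 2.80, and those of Smad4 at 24 h and 48 h against 0 h include 0.

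The BMP receptor SMADs changed in different directions. Smad1, whose protein is phosphorylated by BMP receptors, was at 42.5, 35.6 and 38.5 CPM in the 0 h libraries (38.9 ± 3.49 CPM, SD, n = 3). It was at 55.2, 51.2 and 51.1 CPM at 24 h (52.5 ± 2.37) and at 52.0, 53.5 and 54.4 CPM at 48 h (53.3 ± 1.20). All later libraries lay above all 0 h libraries, and those at 24 h and 48 h overlapped. The log2 fold change was 0.45 ± 0.12 (SE) at 24 h against 0 h (quasi-likelihood test of edgeR, adjusted p = 0.0319) and 0.45 ± 0.11 at 48 h against 0 h (adjusted p = 0.0215 in the same test). Between 24 h and 48 h the 95% interval of the log2 difference was -0.15 to 0.17. The call at 24 h was lost with no expression filter and without 0 h replicate 2 or any of the 24 h libraries, and that at 48 h without 0 h replicate 2 or any of the 48 h libraries, while the sign was kept.

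Smad5, a close relative of Smad1 with the same receptors, went the other way. Its levels were 102, 92.4 and 69.6 CPM at 0 h (87.9 ± 16.6), 62.7, 66.1 and 56.5 CPM at 24 h (61.8 ± 4.83) and 53.1, 51.9 and 52.0 CPM at 48 h (52.3 ± 0.681). No library of one time point overlapped another time point. The log2 fold change at 48 h against 0 h was -0.75 ± 0.15 (quasi-likelihood test, adjusted p = 0.00938), and from -0.93 to -0.63 over the other fits, all of them called. At 24 h against 0 h it was -0.50 ± 0.16 with a 95% interval of -0.88 to -0.12, which missed the threshold (quasi-likelihood test, adjusted p = 0.0613). It passed there with DESeq2, with all 9 libraries in 1 fit, with GC and length offsets, and without 0 h replicate 3, where it was -0.61 (adjusted p = 0.00529 in edgeR's test). The 0 h libraries carried much of the spread: Smad5 has a GC content of 44.5%, and its log2 ratio of 0 h replicate 3 to replicate 1 was -0.55. The small fall from 24 h to 48 h, -0.25 ± 0.08 (quasi-likelihood test, adjusted p = 0.0468), was no longer called in 7 of the 8 other fits, nor without any single library other than 24 h replicate 3.

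Smad9, the third BMP receptor SMAD and also known as Smad8, was the scarcest SMAD transcript and had the largest fold change of the 8 genes in each comparison. It had 26, 45 and 57 counts at 0 h, 79, 95 and 78 at 24 h and 191, 259 and 216 at 48 h. In CPM these were 1.62, 2.23 and 2.84 (2.23 ± 0.608), then 3.88, 5.08 and 3.81 (4.26 ± 0.714), then 10.0, 11.3 and 10.9 (10.7 ± 0.649). The time points did not overlap, and each later one was higher. Against 0 h, Smad9 was 4.78-fold higher at 48 h (log2 fold change 2.26 ± 0.23, 95% interval 1.71 to 2.80, quasi-likelihood adjusted p = 0.000421). Against 24 h it was 2.51-fold higher at 48 h (log2 fold change 1.33 ± 0.15, quasi-likelihood adjusted p = 0.000724). Both calls held in every fit that was tried, with log2 fold changes of 2.08 to 2.49 and of 1.26 to 1.47. The earlier step, 24 h against 0 h, was 0.94 ± 0.27 (quasi-likelihood adjusted p = 0.0407) and lost its call with no expression filter and when any library other than 0 h replicate 3 was left out.

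Smad2, a receptor SMAD for activin and TGF-beta, was the most counted SMAD gene and was called in no comparison. Its levels were 163, 152 and 148 CPM at 0 h (154 ± 8.07), 125, 120 and 132 CPM at 24 h (126 ± 5.68) and 137, 138 and 143 CPM at 48 h (139 ± 2.86). The libraries of the 3 times did not overlap, with 24 h lowest and 48 h between. The 95% intervals of the log2 differences were -0.52 to -0.05 at 24 h against 0 h (quasi-likelihood test, adjusted p = 0.0745) and -0.37 to 0.07 at 48 h against 0 h (adjusted p = 0.285 in that test). With all 9 libraries in 1 fit the difference at 24 h was -0.30 and was called (adjusted p = 0.0174 in edgeR's test).

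Smad3, the other activin and TGF-beta receptor SMAD and the one that binds DNA directly, peaked at 24 h. It was at 30.1, 34.6 and 34.8 CPM at 0 h (33.2 ± 2.69), at 53.9, 62.9 and 58.4 CPM at 24 h (58.4 ± 4.503) and at 42.6, 49.6 and 47.4 CPM at 48 h (46.6 ± 3.58). Each 24 h library was above each 48 h library, and each 48 h library above each 0 h library. Smad3 was 1.77-fold higher at 24 h than at 0 h (log2 fold change 0.83 ± 0.12, quasi-likelihood adjusted p = 0.00211), which was called in every fit at 0.76 to 0.94. At 48 h it was 1.40-fold higher than at 0 h (0.49 ± 0.12 on the log2 scale, quasi-likelihood adjusted p = 0.0188), a call lost on leaving out 0 h replicate 2 or either of replicates 2 and 3 of 48 h. From 24 h to 48 h it fell by 0.34 ± 0.09 on the log2 scale (quasi-likelihood adjusted p = 0.0235), a call that was lost with all 9 libraries in 1 fit, with GC offsets, where the difference was -0.25, and without 24 h replicate 2 or 3 or 48 h replicate 1 or 3.

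Smad4, the shared partner of all receptor SMADs, moved little. Its levels were 94.2, 77.7 and 83.9 CPM at 0 h (85.2 ± 8.33), 82.6, 82.6 and 80.4 CPM at 24 h (81.9 ± 1.22) and 95.04, 96.0 and 98.9 CPM at 48 h (96.7 ± 2.01). The 0 h and 24 h libraries overlapped, and all 48 h libraries lay above the rest, by a narrow margin over 0 h replicate 1. The 95% intervals of the log2 differences from 0 h were -0.31 to 0.22 at 24 h and -0.08 to 0.44 at 48 h. Against 24 h it was 0.23 ± 0.06 higher at 48 h on the log2 scale (quasi-likelihood adjusted p = 0.025), a call lost when all 9 libraries shared 1 fit, with no expression filter, and on leaving out any library other than 48 h replicate 2.

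The inhibitory SMADs were lower at 24 h than at 0 h in every library, and Smad7 alone of the pair was called higher again at 48 h. Smad7, which binds type I receptors of all branches and recruits ubiquitin ligases, was at 53.6, 73.6 and 88.2 CPM at 0 h (71.8 ± 17.4), at 44.2, 47.3 and 47.1 CPM at 24 h (46.2 ± 1.75) and at 63.4, 69.0 and 56.4 CPM at 48 h (62.9 ± 6.32). The 24 h libraries lay below all others, and the 0 h and 48 h libraries overlapped. The log2 fold change was -0.62 ± 0.18 at 24 h against 0 h (quasi-likelihood adjusted p = 0.0388) and 0.43 ± 0.09 at 48 h against 24 h (quasi-likelihood adjusted p = 0.00771), which is 1.35-fold. The fall at 24 h lost its call with library size alone (-0.51, adjusted p = 0.0714 in edgeR's test) and when any library other than 0 h replicate 1 was left out, being -0.42 without 0 h replicate 3, whereas the later rise kept its call without each library in turn and lost it with all 9 libraries in 1 fit, at 0.45. At 48 h against 0 h the 95% interval was -0.64 to 0.25.

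Smad6, which acts mainly on BMP receptors and SMAD1, was called in no comparison. It was at 50.7, 55.7 and 69.8 CPM at 0 h (58.7 ± 9.88), 43.6, 45.6 and 47.4 CPM at 24 h (45.5 ± 1.86) and 47.6, 46.0 and 39.9 CPM at 48 h (44.5 ± 4.05). All later libraries were below all 0 h libraries, yet the 0 h libraries spread widely. The 95% intervals against 0 h were -0.68 to -0.03 at 24 h (quasi-likelihood adjusted p = 0.108) and -0.75 to -0.05 at 48 h (quasi-likelihood adjusted p = 0.0833), and between 24 h and 48 h the interval was -0.23 to 0.15. Without 0 h replicate 1, Smad6 was called lower at both times, and it was also called at 24 h with GC offsets and at 48 h with all 9 libraries in 1 fit. Smad6 and Smad7 have GC contents of 60.8% and 56.9%, and their log2 ratios of 0 h replicate 3 to replicate 1 were 0.46 and 0.71.

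Ratios of counts inside a library do not depend on the scaling between libraries, though they do depend on GC content where the libraries differ along it, and show how the balance of related SMADs shifted. Smad1 to Smad5 was 0.418, 0.385 and 0.553 at 0 h, 0.881, 0.775 and 0.903 at 24 h and 0.979, 1.03 and 1.05 at 48 h. The time points did not overlap, so reads of Smad1 went from well under those of Smad5 to about as many. Smad9 to Smad1 was 0.0381 to 0.0737 at 0 h, 0.0703 to 0.0993 at 24 h and 0.193 to 0.210 at 48 h, so that only the last step was beyond the spread. Smad3 to Smad2 was 0.184 to 0.236 at 0 h, 0.433 to 0.522 at 24 h and 0.311 to 0.359 at 48 h, again with no overlap. Smad7 to Smad6 was 1.06 to 1.32, 0.995 to 1.04 and 1.33 to 1.498, with 24 h lowest and 48 h highest in every library. Ratios of counts between genes are not ratios of molecules, because the genes differ in length.

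**Figure D3:**
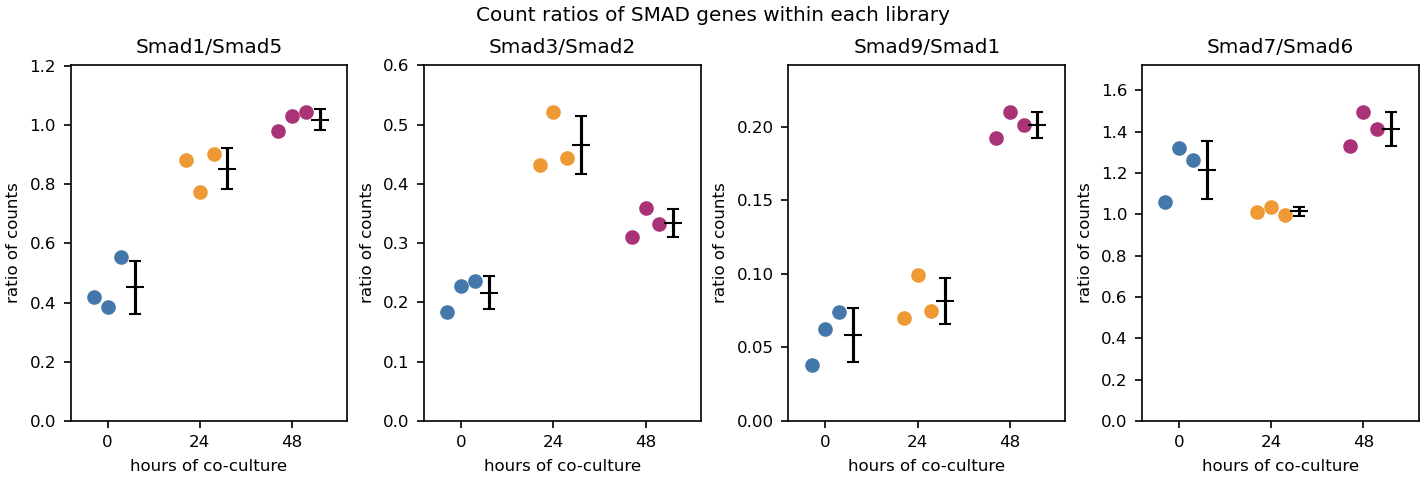
Ratio of the counts of related SMAD genes within each library against hours of co-culture, with the mean and SD of 3 libraries as bars. The mean of Smad1 to Smad5 went from 0.452 through 0.853 to 1.02, and that of Smad3 to Smad2 from 0.216 to 0.466 and 0.334.

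Levels of different genes were compared per length, as TPM, computed from the counts and the union of exons. Smad4 was the highest at each time, with 60.1 ± 8.45, 63.0 ± 4.37 and 71.2 ± 3.74 TPM in order of time (SD, n = 3), and its libraries did not overlap those of the next gene. Smad9 was the lowest at each time, with 1.07 ± 0.221, 2.27 ± 0.422 and 5.48 ± 0.582 TPM. At 0 h the order below Smad4 was Smad6, Smad2, Smad7 and Smad5 (47.5, 46.0, 41.1 and 31.3 TPM), in which each gene overlapped the next, and then Smad1 and Smad3 at 16.2 and 15.6 TPM, which overlapped each other but lay below Smad5. At 24 h Smad2 and Smad6 overlapped at 40.8 and 40.5 TPM, Smad3 and Smad7 at 30.0 and 29.1, and Smad1 and Smad5 at 24.0 and 23.8. By 48 h Smad2, Smad7 and Smad6 overlapped at 43.4, 38.2 and 38.02 TPM, Smad1 and Smad3 at 23.3 and 23.0, and Smad5 at 19.3 TPM had become the lowest but for Smad9. The level of Smad1 depends on the gene model, since its exons join to 6262 bases while its longest transcript has 3775. With the latter length Smad1 was at 21.8, 32.4 and 31.7 TPM at the 3 times.

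The summed level of the 8 genes was 259 ± 11.8, 253 ± 13.0 and 262 ± 19.0 TPM at the successive times, and the libraries of the times overlapped. Within this sum the BMP receptor SMADs made up 18.7 ± 2.88%, 19.7 ± 1.04% and 18.4 ± 0.426%, while the share of Smad5 in the sum went from 12.0% to 7.37% and that of Smad9 from 0.417% to 2.09% between 0 h and 48 h. Smad2 and Smad3 together made up 23.8 ± 1.16%, 28.0 ± 0.718% and 25.4 ± 0.928% in order of time, with 24 h above all libraries of the other times. Smad4 made up 23.2 ± 2.39%, 24.8 ± 0.528% and 27.2 ± 0.974%, all 48 h libraries being above all others. The inhibitory SMADs were the largest class at 0 h, at 28.3, 34.8 and 40.1% in the libraries, and were at 27.5 ± 0.815% at 24 h and 29.0 ± 2.21% at 48 h, within the 0 h range or just below it.

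**Figure D4:**
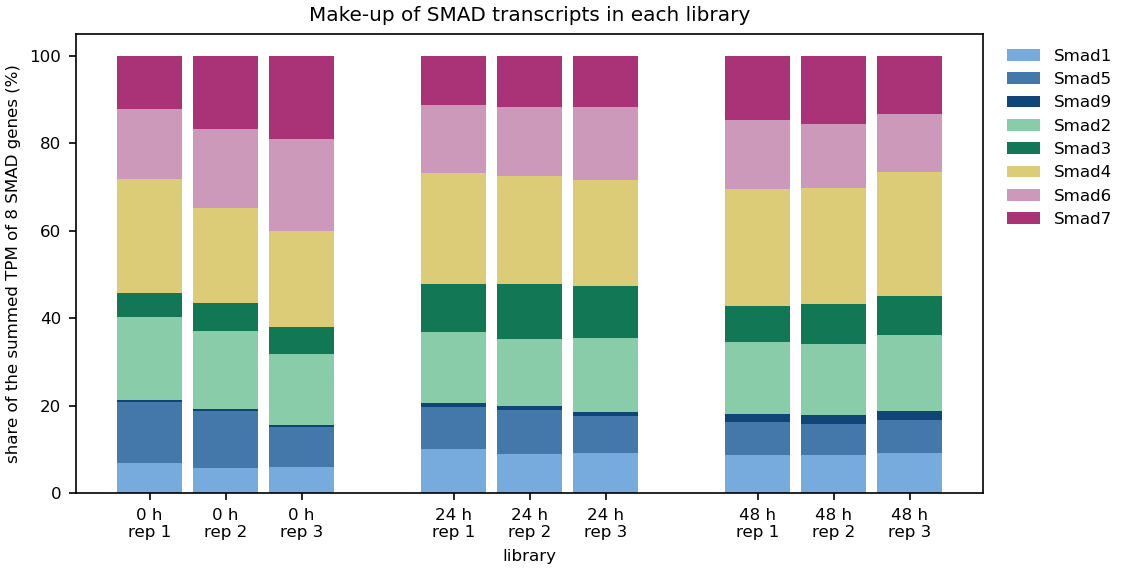
Share of each SMAD gene in the summed TPM of the 8 genes (percent), as 1 stacked bar for each of the 9 libraries, grouped by time point. Smad3 had a mean share of 6.03%, 11.9% and 8.78% at the successive times, and Smad4 the largest single mean share at each time, 27.2% at 48 h.

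Receptors upstream of the SMADs were mixed. Of 11 tested type I and type II receptors, the cells of 24 h had 1 called higher and 3 lower than at 0 h, and those of 48 h had 2 of each, so 4 of 11 were called each time, near the 25.5% and 31.6% of all genes called. Their median log2 fold changes were -0.21 and 0.24. Besides the genes described next, these were Amhr2, the receptor for anti-Müllerian hormone, at 24 h (-0.95 on the log2 scale) and Acvr1, a type I receptor for BMP, at 48 h (0.43), both named after their values were seen, as are the members given here only to complete a count. The call of Amhr2, whose means were under 10 CPM at each time, was lost with library size alone, with no expression filter and without any library but 0 h replicate 3. That of Acvr1 was lost with no expression filter and without 0 h replicate 2 or any of the 48 h libraries. Acvrl1, a type I receptor for BMP9 and BMP10 known from endothelium, fell from 28.0 ± 5.18 CPM to 5.20 ± 0.392 by 24 h and 4.57 ± 0.309 by 48 h (log2 fold change at 48 h -2.62 ± 0.18, quasi-likelihood adjusted p = 6.3e-05). Its co-receptor endoglin, Eng, also fell, from 23.5 ± 3.53 to 9.98 ± 0.475 CPM at 48 h (-1.24 ± 0.15 on the log2 scale, quasi-likelihood adjusted p = 0.00082). In these libraries 6 endothelial markers summed to 70.3 to 77.3 CPM at 0 h and to 21.1 to 24.3 CPM at 48 h, with Vwf the most abundant at each time. Of 5 tested endothelial markers, 1 was called higher and 3 lower at 24 h and again at 48 h against 0 h. The part of endothelial RNA in the falls of Acvrl1 and Eng was not tested. Acvr2b, a type II receptor for activin, rose from 39.2 ± 4.07 to 58.8 ± 3.00 CPM at 48 h (log2 fold change 0.59 ± 0.12, quasi-likelihood adjusted p = 0.00915). Its 48 h call held in every fit, but that at 24 h was lost in 6 of 14 others, among them those without any of the 24 h libraries. Tgfbr2, the type II receptor for TGF-beta, fell from 18.8 ± 2.27 to 12.2 ± 2.11 CPM (-0.63 ± 0.17, quasi-likelihood adjusted p = 0.0291), a call lost with library size alone or without 0 h replicate 2 or 48 h replicate 1 or 2. The 24 h call of Tgfbr2 was lost in 8 of 14 other fits, among them those without any library but 0 h replicate 3. Bmpr2, the type II receptor for BMP, was at 36.5 ± 16.7, 47.8 ± 4.26 and 68.2 ± 11.7 CPM and was called in the main fits only at 48 h against 24 h (0.50 ± 0.13 on the log2 scale). GC offsets lowered that difference to 0.13 and ended the call, which 7 of 14 other fits lost, among them those without 24 h replicate 1 or 3 or 48 h replicate 1 or 3. At 48 h against 0 h the difference was 0.90 ± 0.32, not called in the main fit but called in 6 of 14 others, DESeq2 and GC offsets included.

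Genes whose products modify, hold or move SMAD proteins included members called in both directions, and their counts at 24 h and 48 h against 0 h stand beside 25.5% and 31.6% of all genes. Among 13 ubiquitin ligases and deubiquitinases, 1 was called higher and 3 lower at both 24 h and 48 h against 0 h. Their medians were -0.35 and -0.16 on the log2 scale, and their 4 of 13 is near the share of all genes. The higher one was Smurf1, a ligase of BMP SMADs and receptors, at 0.49 and 0.38, calls lost without 0 h replicate 2 or any of the later libraries, and at 48 h also with DESeq2, with no expression filter and without 0 h replicate 1. The lower ones were Rnf111, also called Arkadia, which marks SMAD7 and the corepressors SKI and SKIL for degradation, with a log2 fold change of -0.96 ± 0.18 at 24 h (quasi-likelihood adjusted p = 0.00657) and a call at 48 h that was lost with library size alone and without 0 h replicate 2 or any of the 48 h libraries, and Usp11 and Usp4, deubiquitinases of TGF-beta receptors, at -1.47 ± 0.12 and -0.62 ± 0.10 at 48 h. Of 8 SMAD phosphatases and linker kinases 1 was called higher and 2 lower at each time against 0 h, with medians of -0.09 and -0.16 on the log2 scale. Ctdspl, a small C-terminal domain phosphatase, rose by 0.85 ± 0.12 on the log2 scale at 24 h (quasi-likelihood adjusted p = 0.00224), and Ppm1a, a phosphatase of SMAD2 and SMAD3, fell by 0.56 ± 0.12 (quasi-likelihood adjusted p = 0.0125), a call lost without 0 h replicate 2 or 24 h replicate 1 or 2. The other lower members were Ctdsp1 at 24 h (-0.68) and Ctdsp2 at 48 h (-0.52), phosphatases related to Ctdspl. The call of Ctdsp1 was lost with library size alone and without any library but 0 h replicate 1, and that of Ctdsp2 without 48 h replicate 1. Of 10 anchors and membrane regulators 3 were higher and 1 lower than at 0 h by 24 h, and after 48 h 4 were higher, with the same 1 lower. Pmepa1, which is also in the list of targets, and Dab2, an endocytic adaptor, were higher at both times, Eid2 at 24 h, and Hgs, an endosomal protein, and Tgfbrap1 at 48 h. Of these calls, those of Dab2 and Eid2 at 24 h and of Hgs and Tgfbrap1 at 48 h were lost without 0 h replicate 2 or any of the later libraries compared. Their medians were 0.18 and 0.40. The lower gene was Lemd3, an inner nuclear membrane protein that binds receptor SMADs, at 89.8 ± 14.4, 36.5 ± 0.709 and 35.4 ± 1.68 CPM. Of 8 nuclear transport genes 2 were called, the importin Ipo7 (0.56 on the log2 scale) and the exportin Xpo4 (0.36), both higher at 48 h than at 24 h. In that comparison 21.3% of all genes were called, so 2 of 8 is near that share. Both calls were lost with all 9 libraries in 1 fit, that of Ipo7 also without 24 h replicate 1 or 48 h replicate 3 and that of Xpo4 with GC and length offsets.

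Among 9 corepressors 1 was called higher and 3 lower at both times against 0 h, with medians of -0.10 and -0.22 on the log2 scale. Over all genes, 25.5% were called at 24 h and 31.6% at 48 h against 0 h. Ski, which binds SMAD complexes and blocks transcription, was highest at 24 h, as was Smad3, with 309 ± 30.9, 478 ± 39.1 and 400 ± 19.1 CPM in order of time (log2 fold change at 24 h 0.64 ± 0.12, quasi-likelihood adjusted p = 0.00808). Its call at 48 h was lost with no expression filter and without any library but 0 h replicate 3. Tgif1, a homeodomain corepressor of SMAD2, was at 23.6 ± 0.834, 5.12 ± 0.725 and 3.64 ± 0.665 CPM, a log2 fold change of -2.70 ± 0.17 at 48 h (quasi-likelihood adjusted p = 4.6e-05). Tob1, which restrains BMP SMADs, fell by 1.34 ± 0.13 on the log2 scale at 48 h (quasi-likelihood adjusted p = 0.000288). The third lower corepressor was Ctbp2, at -0.95 and -1.15 against 0 h. Of 13 coactivators and DNA-binding partners, 4 were called at 48 h against 0 h, near the share of all genes. The 24 h comparison brought 1 call upward and 4 downward, and 48 h brought 1 and 3, with medians of -0.27 and -0.04. The upward one was Zeb2, a zinc finger protein that binds receptor SMADs, at 2.50 and 2.92 on the log2 scale, and beside the genes given next the downward ones were Foxh1, the partner of SMAD2 in nodal signalling, and Mixl1 at 24 h (-2.43 and -1.34) and E2f4 at 48 h (-0.47). Zeb2, Foxh1 and Mixl1 had means under 10 CPM at each time, so their large fold changes rest on few reads. The 24 h call of Zeb2 was lost without 0 h replicate 2 or 24 h replicate 2 or 3, that of Foxh1 without any 24 h library, and that of E2f4 with GC and length offsets and without 0 h replicate 2 or any 48 h library. Zfp423, a zinc finger partner of BMP SMADs, went from 17.7 ± 1.52 to 2.43 ± 0.484 CPM at 48 h, and the acetyltransferase Kat2b from 53.6, 42.9 and 20.3 CPM at 0 h to between 11.6 and 11.9 CPM.

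Genes known as targets of BMP SMADs moved apart at 24 h, and 7 of 15 were called higher at 48 h than at 24 h. Of 15 such genes, Smad6 and Smad7 included, 4 were called higher and 5 lower at 24 h against 0 h, 6 higher and 3 lower at 48 h against 0 h, and 7 higher and 1 lower at 48 h against 24 h, beside 25.5%, 31.6% and 21.3% of all genes called in either direction. The 7 were Id1, Id2, Id3, Id4, Smad7, Msx1 and Grem1, and the lower one was the homeobox gene Dlx3, which was lower in each comparison, its last call being lost with all 9 libraries in 1 fit, with GC and length offsets and without 48 h replicate 1. Their median log2 fold changes were -0.06, 0.29 and 0.43, beside 0.01, 0.02 and -0.00 over all genes. Id1, an inhibitor of basic helix-loop-helix factors and a direct target of SMAD1 and SMAD5, was at 15.2, 19.6 and 20.2 CPM at 0 h, 53.2, 62.2 and 66.8 at 24 h and 136, 147 and 126 at 48 h. Its log2 fold change at 48 h against 0 h was 2.89 ± 0.15 (quasi-likelihood adjusted p = 2.1e-05). Its relative Id2 was at 1.31, 0.844 and 0.398 CPM at 0 h, 15.3, 17.0 and 18.9 at 24 h and 56.2, 55.8 and 57.6 at 48 h, which is 6.08 ± 0.32 on the log2 scale against 0 h (quasi-likelihood adjusted p = 2.28e-05). In both genes the time points did not overlap. Id4, the family member that marks stem spermatogonia, fell from 37.5 ± 2.97 CPM to 6.58 ± 0.588 in the first 24 h and stood at 12.1 ± 0.738 by 48 h (log2 fold change at 24 h -2.50 ± 0.14, quasi-likelihood adjusted p = 3.75e-05). The homeobox gene Msx2 was at 15.2 ± 2.59, 2.46 ± 0.376 and 3.71 ± 0.219 CPM. Grem1, a secreted BMP antagonist, was at 4.18, 1.94 and 1.84 CPM at 0 h, 2.56 to 2.64 at 24 h and 14.8, 11.3 and 20.5 at 48 h (log2 fold change 2.56 ± 0.22 at 48 h against 24 h, quasi-likelihood adjusted p = 0.000189). Summed myoid and stromal markers rose in the same libraries, the first being 17.1 to 20.5 CPM at 0 h and 284 to 350 CPM at 48 h and the second 818 to 981 and 3900 to 4204 CPM, and the part of somatic RNA in the rises of Id1, Id2 and Grem1 was not tested.

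Targets of activin and TGF-beta SMADs were called higher in 4 and lower in 5 of 12 tested genes at 24 h against 0 h, higher in 5 and lower in 3 of 13 at 48 h against 0 h, and higher in 2 and lower in 2 of 12 at 48 h against 24 h. Over all genes, 25.5%, 31.6% and 21.3% were called in either direction in these comparisons. Smad7 is in this list too, and the medians of the log2 fold changes were 0.27, 0.70 and 0.18, beside 0.01, 0.02 and -0.00 over all genes. Higher in both comparisons with 0 h were Ccn2, Pmepa1, Ltbp3 and Inhba, and lower in both were Nodal, the activin antagonist Fst and Bhlhe40, the 48 h call of Nodal being lost without 0 h replicate 2 or 48 h replicate 3. Nodal had means under 10 CPM at each time. Pmepa1, a membrane protein that holds receptor SMADs away from the receptor, was at 27.8 ± 4.49, 60.5 ± 6.30 and 45.4 ± 3.93 CPM, highest at 24 h in all libraries, as was Smad3. Ccn2, a matricellular protein, was at 8.67 ± 3.57, 34.2 ± 3.34 and 41.9 ± 2.88 CPM. Inhba, the activin A subunit, was at 0.436, 0.248 and 0 CPM at 0 h (7, 5 and 0 counts) and at 7.69 ± 0.853 and 11.7 ± 3.03 CPM at 24 h and 48 h. Bhlhe40, a helix-loop-helix repressor, fell from 173 ± 12.9 to 35.6 ± 5.34 and 13.4 ± 0.677 CPM, a log2 fold change of -3.69 ± 0.12 at 48 h (quasi-likelihood adjusted p = 5.7e-06). Cdkn2b was at 13.8 ± 1.89, 8.19 ± 0.397 and 12.5 ± 0.509 CPM in order of time. It was called lower at 24 h against 0 h (-0.74 on the log2 scale) and higher at 48 h against 24 h (0.59). The first of these calls was lost without 24 h replicate 1 or 2. Ccn2 and Inhba are also transcribed in fibroblasts and myoid cells, whose summed markers rose in the same libraries. The part of such RNA in these values was not tested.

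**Figure D5:**
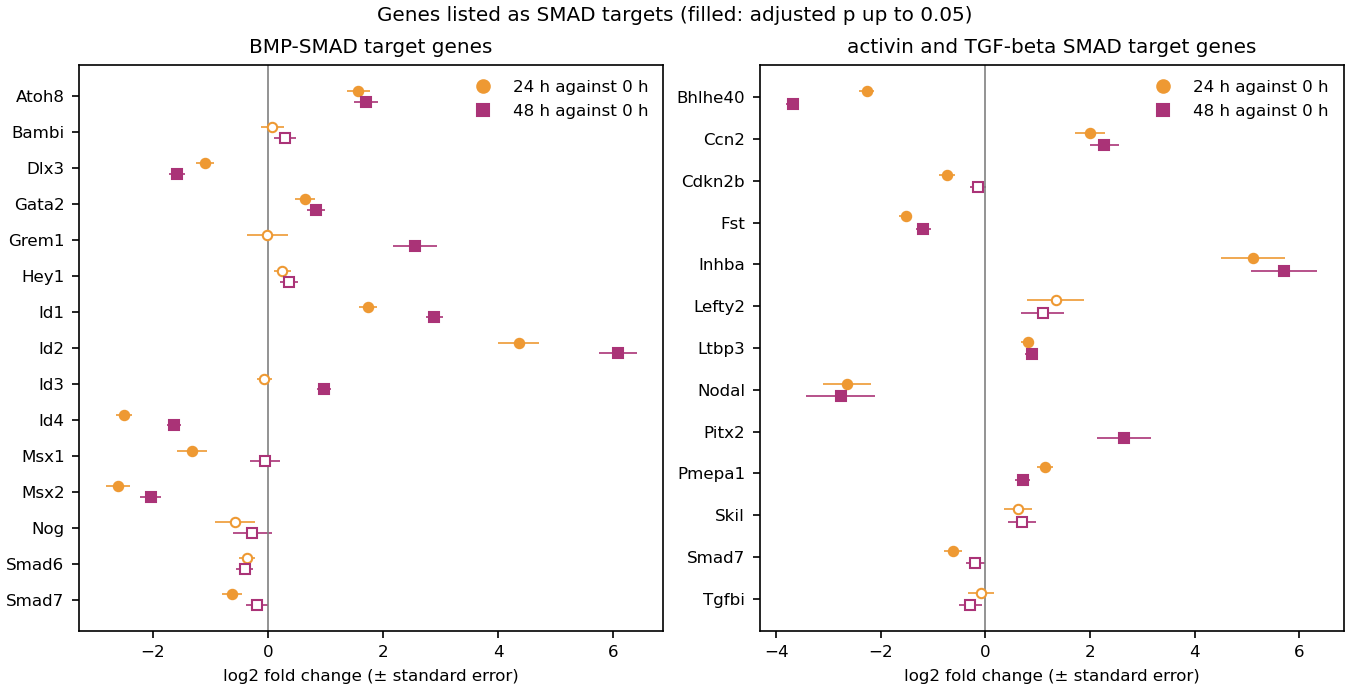
Log2 fold change with its standard error for genes listed as targets of BMP SMADs (left) and of activin and TGF-beta SMADs (right), at 24 h (circles) and 48 h (squares) against 0 h, filled where the adjusted p is at most 0.05. Id2 lies farthest to the right on the left panel, at 4.36 and 6.08, and Inhba on the right panel, at 5.12 and 5.72.

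The genes most like each called SMAD gene in their course over the 9 libraries were found by the root mean square difference of centred log2 CPM among 10973 genes. Smad1 was nearest to Ccndbp1 (a difference of 0.0448), and Gemin5 (0.0510) came next. For Smad5 they were Edem1 (0.0582) and Nemp1 (0.0658), for Smad4 Poglut1 (0.0487) and Gspt1 (0.0489), and for Smad3 Tbc1d2 (0.0790) and Stard5 (0.0815). Smad7 was nearest to Mycn (0.0941), which was at 98.5 ± 19.5, 61.4 ± 3.13 and 95.3 ± 6.95 CPM, and Csrp2 (0.107). Smad9 had no gene as near, its nearest being Ap5b1 (0.251), at 11.4 ± 2.06, 27.8 ± 2.28 and 49.9 ± 4.75 CPM, and Ttbk1 (0.258).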

How the data were processed

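Poly-A RNA-seq was read from 9 libraries of EGFP-SSCs, 3 each at 0 h, 24 h and 48 h. The authors deposited counts per gene for each library, made by trimming with fastp, alignment to GRCm38 with HISAT2 and counting with featureCounts per the submitters' processing notes, with no normalization. Versions and a strand setting are not given in the sources used here. Totals were 16825251 to 22201892 counts, so SMAD genes had 26 to 3182 counts a library. Replicates of each group differed beyond sampling noise, their chi-square per degree of freedom being 7.13 to 81.4.

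Each comparison used the 6 libraries of its groups, filterByExpr, TMM and edgeR 4.0.16 in R 4.3.3, whose quasi-likelihood test was two-sided, with Benjamini-Hochberg adjustment over all genes and a threshold of 0.05. Standard errors and 95% intervals came from the same fits, and the steps were tested on simulated data. CPM and TPM were computed here, TPM with exon unions of GENCODE M21, which held 45229 of the 46078 identifiers. RMS likeness used a prior count of 2.

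The members and gene lists were chosen with earlier results of these data known, and 1 gene of the activin and TGF-beta target list is not reported here and was left out of its counts. Named genes are the SMAD genes, list members and the 2 genes most like each called SMAD gene. List members qualified if called in at least 1 comparison with a mean of at least 10 CPM at 1 time point (up to the 3 largest changes a list and comparison). Not all that qualified are described, those left out being Itch, Cdk8, Zfyve9, Zfyve16, Tob2, Tgif2 and Ep300. Members named only to complete a count were added after their values were seen. Alternatives were DESeq2 1.42.0, other size factors, filters and fits, a replicate block, GC and length offsets, and leaving out each library.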

Additional observations from a re-analysis of the deposited data

How the results depend on the processing

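Of the 13 SMAD calls, none changed direction in any of the 8 other fits or the 6 fits that each left out 1 library. Counts of called SMAD genes moved more. At 24 h against 0 h they were 2 with no expression filter (Smad3 and Smad7) and 1 with the replicate block (Smad3), at 48 h against 0 h 2 with the replicate block (Smad5 and Smad9), and at 48 h against 24 h 3 with no expression filter, 3 with the replicate block (Smad3, Smad7 and Smad9) and 1 with all 9 libraries in 1 fit (Smad9). Leaving out 1 library gave 1 to 4, 2 to 5 and 2 to 4. Over all genes, leaving out 1 library gave 2607 to 6023, 3471 to 7116 and 1857 to 4356 calls, and all 9 libraries in 1 fit gave 1043 at 48 h against 24 h. The replicate block gave 3007, 4013 and 2497. Same-numbered libraries did not deviate together (9 pairs, r from -0.280 to 0.195, 1 of them over 0.1), and 3 of 9 libraries correlated best with their own number, so the number was not taken as a pairing.

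Signs turned only for differences that were not called. Smad4 at 24 h against 0 h was 0.0672 with library size alone and 0.0298 with GC and length offsets, and ran from -0.1162 without 0 h replicate 2 to 0.0346 without 0 h replicate 1. Smad7 at 48 h against 0 h was 0.0606 with GC and length offsets, and ran from -0.363 without 0 h replicate 1 to 0.0124 without 0 h replicate 3. At 48 h against 24 h, Smad2 was -0.0205 and Smad6 0.1998 with GC and length offsets, and leaving out 1 library gave -0.0745 to 0.0279 for Smad6 (above 0 without 24 h replicate 3 or 48 h replicate 3) and -0.0083 to 0.0485 for Smad1 (below 0 without 24 h replicate 2 or 48 h replicate 3). Without TMM, scaling by library size alone put the median over all genes at 0.12 and 0.13 at 24 h and 48 h against 0 h and the share of higher calls to 57.1% and 52.8%, from 44.5% and 41.2%. With the longest transcript as gene length, the BMP receptor SMADs made up 21.6%, 23.8% and 22.1% of the summed TPM at 0 h, 24 h and 48 h, and Smad2 and Smad3 26.6% and 24.3% at 24 h and 48 h. Of 110 calls of list genes other than SMADs, 68 held in every other fit, 24 were lost with the replicate block, and none turned sign. The cause was not tested. Depth limited Smad9 most, at 26 to 57 counts at 0 h.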
